A study of Mus musculus with 19 samples.

Results

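Interferon response and class I antigen presentation genes were followed as a group of 35 listed genes in skeletal progenitor cells from newborn mouse limbs. The members were chosen by name, and each was read from its brightest probe set, by the mean of the 18 neonatal arrays. Of the 35 genes, 33 were measured by a probe set annotated to a single gene, among 18193 genes tested in all. Isg15 and Ifi44, both interferon-induced, were not analysed here, because the only probe set annotated to Isg15 is shared with another gene and Ifi44 is not named in the annotation used. The cells were sorted by flow cytometry from fore and hind limbs of a pooled litter at postnatal day 3, and RNA was amplified in 2 rounds before hybridization. The labels call the mice wild-type, while the protocol calls them GFP-labeled, and they name no further allele or treatment. Every population had passed the same gate, negative for CD45, Ter119 and Tie2 and positive for the integrin AlphaV. The antigens Thy, 6C3 and CD105 then separated Thy+6C3- cells, Thy-6C3+ cells and Thy-6C3- cells, each split into a CD105+ and a CD105- population, which gives 6 populations of 3 arrays each. A single array labelled adult entered no test. Its title names Thy+6C3+CD105+ cells, a combination of antigens that none of the 6 populations has.

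Interferons are secreted signals that act through cell surface receptors, Jak kinases and Stat proteins. Stat2 and Irf9 are part of a complex that binds the interferon-stimulated response element in promoters, while the gamma-activated site is the element through which interferon gamma acts. The induced genes encode proteins that sense viral RNA, block virus entry or replication, and load peptides onto class I molecules for display to T cells. Many of these genes are also transcribed at a low level in cells that have met no virus.

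The promoters of members that differed between the populations are shown because 13 of the 29 member genes with a promoter window in the RefSeq table (GRCm38.p6) held the letters of an interferon-stimulated response element, GAAANNGAAA or TTTCNNTTTC on the other strand. That is 44.8% of these members, against 3.99% of 27025 genes with windows of the same length, 250 bases before to 50 bases after the start. The gamma-activated site, TTCNNNGAA on both strands, stood in 7 of the 29, or 24.1%, against 9.55% of all genes. The 5 windows below run 5′ to 3′ on the strand of the gene, with the response element in capitals, and belong to Gbp2 (chr3:142620413-142620712, plus strand), Ifitm3 (chr7:141010695-141010994, minus strand), Oas1a (chr5:120907476-120907775, minus strand), Ifitm2 (chr7:140955912-140956211, minus strand) and B2m (chr2:122147437-122147736, plus strand).
Gbp2: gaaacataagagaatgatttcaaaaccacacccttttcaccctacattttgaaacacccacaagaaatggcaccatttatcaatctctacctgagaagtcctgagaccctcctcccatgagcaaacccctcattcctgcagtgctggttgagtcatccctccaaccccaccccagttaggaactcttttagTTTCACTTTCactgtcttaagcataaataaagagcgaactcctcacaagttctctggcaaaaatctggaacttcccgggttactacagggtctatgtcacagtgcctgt
Ifitm3: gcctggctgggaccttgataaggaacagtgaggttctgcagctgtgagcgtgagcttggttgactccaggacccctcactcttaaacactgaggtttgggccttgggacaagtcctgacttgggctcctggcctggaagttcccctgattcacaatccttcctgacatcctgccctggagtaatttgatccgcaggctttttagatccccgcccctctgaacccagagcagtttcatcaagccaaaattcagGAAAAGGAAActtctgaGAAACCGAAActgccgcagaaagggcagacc
Oas1a: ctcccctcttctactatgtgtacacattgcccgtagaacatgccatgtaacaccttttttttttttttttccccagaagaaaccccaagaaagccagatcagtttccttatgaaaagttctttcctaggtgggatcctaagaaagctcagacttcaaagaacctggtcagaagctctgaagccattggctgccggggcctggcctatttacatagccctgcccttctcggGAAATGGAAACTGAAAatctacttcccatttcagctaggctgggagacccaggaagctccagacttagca
Ifitm2: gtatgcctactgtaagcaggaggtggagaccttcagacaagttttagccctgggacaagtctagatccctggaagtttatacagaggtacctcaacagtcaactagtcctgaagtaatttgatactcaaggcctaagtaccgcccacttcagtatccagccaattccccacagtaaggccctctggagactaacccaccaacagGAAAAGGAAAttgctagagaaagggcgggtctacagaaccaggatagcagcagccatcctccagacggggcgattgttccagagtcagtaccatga
B2m: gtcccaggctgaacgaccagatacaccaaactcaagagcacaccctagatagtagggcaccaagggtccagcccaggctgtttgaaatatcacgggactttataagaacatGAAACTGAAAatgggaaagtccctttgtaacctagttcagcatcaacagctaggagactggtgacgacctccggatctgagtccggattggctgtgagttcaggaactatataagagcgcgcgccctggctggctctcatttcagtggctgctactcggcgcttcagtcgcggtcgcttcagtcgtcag
The element begins 59 bases before the start in Gbp2, 46 before it in Ifitm2 and 139 before it in B2m. In Oas1a 2 matches, beginning 20 and 14 bases before the start, overlap each other. In Ifitm3 both matches lie after the start, beginning at bases 3 and 20, and the later one overlaps a gamma-activated site that begins at base 14. The window of Ifitm1, the member with the widest range of levels, holds neither motif. A match describes letters in this window and was not tested as a binding site. The element stood in 8 of the 16 windows of members called in a Thy step and in 4 of the 11 windows of the other measured members. No window was found for Ifi27l2a, Mx1, Mx2, Parp14, Rtp4 and Usp18.

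Levels are log2 values after quantile normalization, and the array medians before it lay between 5.60 and 6.02. The mean level of 8 members was below the lowest of these medians, so their differences concern dim probe sets. These are Gbp2, Parp14, Oasl2, Usp18, Stat2, Ifit1, Mx1 and Mx2. Thy1, which encodes Thy, stood between 9.99 and 10.47 on the 6 Thy+ arrays and between 4.96 and 5.95 on the other 12. Enpep, which encodes the 6C3 antigen, stood between 10.69 and 11.24 on 6C3+ arrays and between 6.20 and 8.83 on the others. Eng, which encodes CD105, was called in no CD105 step. Among Thy- cells every CD105+ array was above the CD105- arrays of its pair, but among Thy+6C3- cells the arrays overlapped, at 8.75, 8.38 and 8.34 with CD105 and 7.51, 7.61 and 8.58 without it (limma adjusted p = 0.254). The titles of replicates 2 and 3 of Thy-6C3+CD105- name Thy+ cells where their population field names Thy-, and their Thy1 levels were 5.78 and 5.95. They are grouped by the field. Ptprc, which encodes the excluded CD45, stood between 3.83 and 5.23 on the neonatal arrays. Tek, which encodes the excluded Tie2, averaged 5.96 ± 0.22 in Thy+6C3-CD105+ cells and 6.39 ± 0.19 in Thy+6C3-CD105- cells (SD, n = 3 each), against 4.68 to 5.12 on the other 12 arrays. Pecam1, a defining endothelial gene, stood between 4.12 and 6.22. Fewer cells of a type and less RNA per cell cannot be told apart in such bulk samples. Nothing in the labels says that the 3 arrays of a population came from separate litters, so p-values measure the spread between these arrays, which may be technical.

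By mean log2 level, the members as a group stood highest in Thy+ cells and lowest in cells with neither Thy nor 6C3. Their mean log2 level was 7.44 ± 0.07 with CD105 and 7.17 ± 0.03 without it in Thy+6C3- cells (SD, n = 3 each). It was 6.92 ± 0.11 with CD105 and 6.90 ± 0.04 without it in Thy-6C3+ cells, and 6.74 ± 0.04 with CD105 and 6.66 ± 0.06 without it in Thy-6C3- cells (SD, n = 3 each). In summed linear level, Thy+6C3-CD105- arrays (13803 to 17428) overlapped Thy-6C3+CD105- arrays (13448 to 15509). Thy+6C3-CD105+ was the highest population for 18 of the 33 members and Thy+6C3-CD105- for 9. Thy-6C3+CD105- was the highest for 3, the class I genes B2m, H2-K1 and H2-D1. Thy-6C3-CD105- was the lowest for 14 and Thy-6C3-CD105+ for 8. The shares of all genes with these highest and lowest populations were not computed, so the counts need not concern the members alone. By limma's moderated F-test over the 6 populations, 12 of the 33 members differed (Benjamini-Hochberg adjusted over 18193 genes, at 0.05), against 10.1% of all genes. These 12 are 4 of the 5 membrane restriction factors, 3 of the 10 cytosolic effectors, 2 of the 6 sensors and regulators, and 1 each of the 4 signalling genes, the 2 guanylate-binding proteins and the 6 class I genes. Oas1a, Ifit3, Ifi35, Bst2, Gbp3, Psmb8, Irf7 and Xaf1, called in a Thy step below, did not pass the F-test (limma adjusted p = 0.0514 to 0.379). On all 6 Thy+ arrays Ifitm1, Ifitm2, Ifitm3 and Ifi27l2a were higher than on each of the other 12 arrays, a pattern that 1.18% of all genes had. No member was higher on all 6 of the 6C3+ arrays than on each of the others, against 0.253% of all genes. The range of population means was at least 2 on the log2 scale for Ifitm1, Gbp2 and Ifit2, and under 1 for 20 members.

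**Figure D1:**
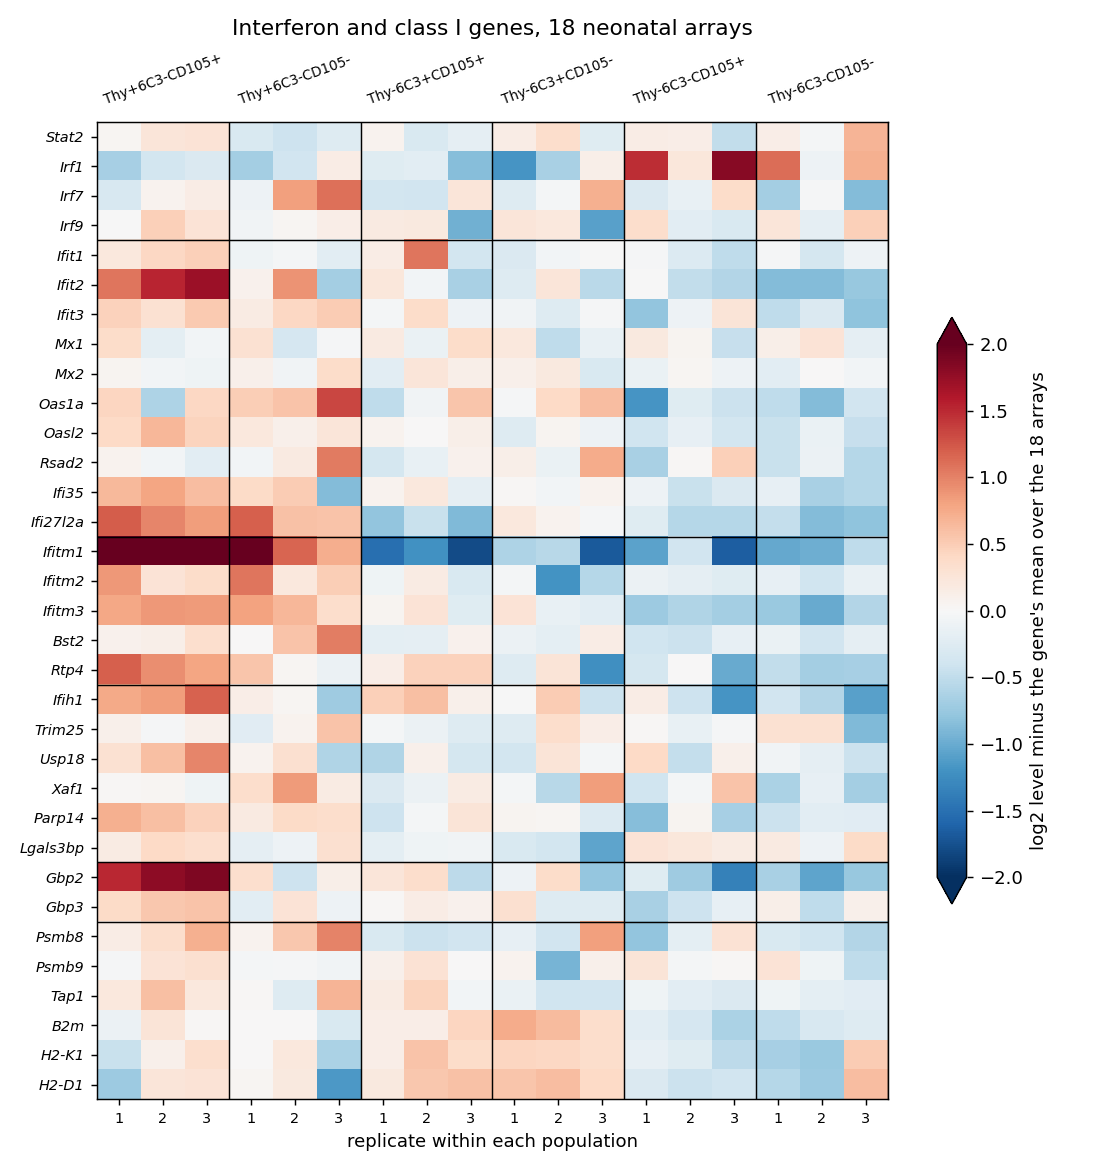
Log2 level of each of the 33 measured genes on each neonatal array, minus the mean of that gene over the 18 arrays (colour, from -2 to 2, with larger values in the end colours). Columns are arrays within the 6 populations, and lines set off the role groups. The Thy+6C3-CD105+ arrays are red for most genes, with Irf1 blue there and red on 5 of the 6 Thy-6C3- arrays.

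Among the 5 membrane restriction factors, 3 rose in the CD105+ Thy step and 4 in the CD105- Thy step. The shares of all genes called higher in these steps were 4.03% and 10.5%. Ifitm1, Ifitm2 and Ifitm3 are interferon-induced transmembrane proteins that hinder virus entry at cell membranes. Ifitm1 had levels of 10.98, 10.45 and 10.49 in Thy+6C3-CD105+ cells and 9.80, 8.82 and 8.37 in Thy+6C3-CD105- cells. In 6C3+ cells its levels were 6.15, 6.45 and 5.86 with CD105 and 7.03, 7.09 and 5.98 without it. In Thy-6C3- cells they were 6.58, 7.27 and 6.00 with CD105 and 6.63, 6.67 and 7.14 without it. The Thy+ arrays thus stood apart from all others, with a gap between 8.37 and 7.27, and the 2 Thy+ populations did not overlap each other. Ifitm1 was higher in Thy+6C3-CD105+ than in Thy-6C3-CD105+ cells by 4.02 ± 0.38 (log2 difference ± SE, limma adjusted p = 2.44e-06). Between Thy+6C3-CD105- and Thy-6C3-CD105- cells the difference was 2.18 ± 0.38 (limma adjusted p = 0.000904).

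Ifitm3 had levels of 11.35, 11.44 and 11.42 in Thy+6C3-CD105+ cells and 11.37, 11.24 and 10.93 in Thy+6C3-CD105- cells. Its 6C3+ arrays had 10.63, 10.85 and 10.33 with CD105 and 10.85, 10.42 and 10.37 without it, and the 6 Thy-6C3- arrays had 9.57 to 9.99. Ifitm3 therefore fell into 3 levels that did not overlap, with 6C3+ cells between Thy+ and Thy-6C3- cells. It rose in both Thy steps, by 1.50 ± 0.18 with CD105 (limma adjusted p = 2.56e-05) and by 1.38 ± 0.18 without it (limma adjusted p = 6.15e-05). Ifitm2 stood at 11.46 to 12.33 on the 6 Thy+ arrays and at 10.06 to 11.41 on the other 12. The Thy step of Ifitm2 passed the test in CD105- cells, at 0.83 ± 0.26, and was 0.68 ± 0.26 in CD105+ cells (limma adjusted p = 0.0352 and 0.155). Bst2, or tetherin, which holds budding virus particles at the cell surface, rose by 0.77 in the CD105- step. Rtp4, another interferon-induced membrane protein, rose by 1.42 ± 0.32 in the CD105+ step (limma adjusted p = 0.00834), a call that ended without Thy-6C3-CD105+ replicate 3. A dimmer Rtp4 probe set gave -0.23 in this step, and the mean of both gave 0.60. The CD105- calls of Ifitm2 and Bst2 ended in 8 other settings each, both other scalings among them.

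**Figure D2:**
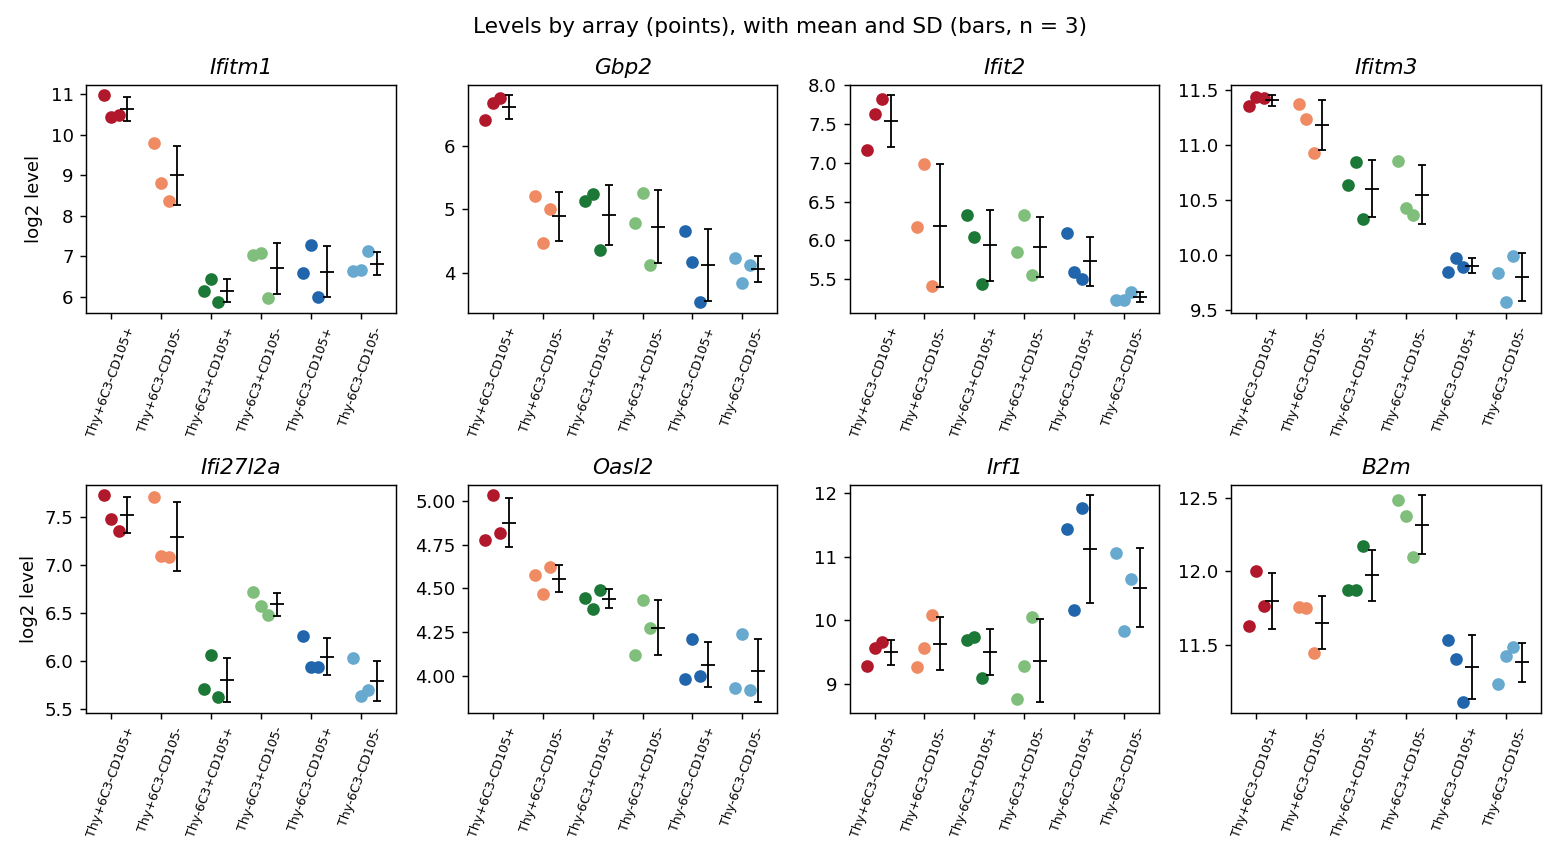
Log2 level of 8 genes on each neonatal array (points), with the mean and SD of the 3 arrays of each population (bars). Ifitm1, Ifitm3 and Ifi27l2a are highest on the 6 Thy+ arrays, Irf1 is highest in Thy-6C3- cells, and B2m is highest in Thy-6C3+CD105- cells.

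Among the cytosolic effectors, Ifit2, Ifi27l2a and Oasl2 passed the F-test, each with its highest population mean in Thy+6C3-CD105+ cells. Ifi35, Ifit3 and Ifit1 also had their highest mean there but did not pass. The Ifit proteins bind viral RNA and parts of the translation machinery. Ifit2 had levels of 7.17, 7.62 and 7.81 in Thy+6C3-CD105+ cells and 6.18, 6.99 and 5.41 in Thy+6C3-CD105- cells. In Thy-6C3+ cells it had 6.33, 6.04 and 5.44 with CD105 and 5.85, 6.33 and 5.56 without it. In Thy-6C3- cells it had 6.09, 5.60 and 5.51 with CD105 and 5.23, 5.23 and 5.34 without it. The Thy+6C3-CD105+ arrays were above all 15 others for Ifit2, while the Thy+6C3-CD105- arrays overlapped the 6C3+ arrays. The Thy step of Ifit2 was 1.80 ± 0.33 with CD105 and 0.93 ± 0.33 without it (limma adjusted p = 0.00181 and 0.0617). Ifi27l2a, a small hydrophobic interferon-induced protein, had 7.73, 7.48 and 7.35 in Thy+6C3-CD105+ cells and 7.71, 7.09 and 7.08 in Thy+6C3-CD105- cells, against 5.63 to 6.72 on the other 12 arrays. It rose in both Thy steps, by 1.47 ± 0.21 and 1.50 ± 0.21 (limma adjusted p = 0.000173 with CD105 and 0.00014 without it). Oasl2, an oligoadenylate synthetase-like protein, had 4.77, 5.03 and 4.82 with CD105 and 4.58, 4.47 and 4.62 without it in Thy+6C3- cells, against 3.92 to 4.24 in Thy-6C3- cells. Oasl2 rose in both Thy steps, but its levels are below the median of every array, and its CD105- call ended without Thy-6C3-CD105- replicate 3 and with those populations fitted alone.

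Oas1a, the synthetase whose products switch on RNase L, stood at 7.37, 7.46 and 8.22 in Thy+6C3-CD105- cells against 6.38, 6.01 and 6.50 in Thy-6C3-CD105- cells. It rose by 1.39 ± 0.35 there (limma adjusted p = 0.0122), and by less than the test required in CD105+ cells, 0.68 ± 0.35 (limma adjusted p = 0.357). Ifit3 rose by 0.89 in the CD105- step, and Ifi35, a partner of Nmi, by 0.96 in the CD105+ step. Without Thy+6C3-CD105- replicate 3 the calls of Oas1a and Ifit3 ended, and that of Ifit3 also ended without Thy-6C3-CD105- replicate 3. The call of Ifi35 was lost without any one of 11 arrays and in 4 other settings. No comparison called Ifit1, Rsad2, the enzyme viperin, or the dynamin-like GTPases Mx1 and Mx2. Their population means lay between 4.20 and 4.84 for Ifit1, 5.97 and 6.74 for Rsad2, 4.20 and 4.49 for Mx1, and 5.45 and 5.66 for Mx2.

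The guanylate-binding proteins are GTPases that gather on vacuoles holding pathogens. Gbp2 had levels of 6.40, 6.68 and 6.75 in Thy+6C3-CD105+ cells and 5.22, 4.47 and 5.00 in Thy+6C3-CD105- cells. Among Thy-6C3+ cells they were 5.13, 5.24 and 4.37 with CD105 and 4.79, 5.26 and 4.12 without it. Among Thy-6C3- cells they were 4.65, 4.18 and 3.54 with CD105 and 4.24, 3.84 and 4.13 without it. The 3 Thy+6C3-CD105+ arrays were above all 15 others, which overlapped across populations. The Thy step was 2.49 ± 0.31 with CD105 and 0.83 ± 0.31 without it (limma adjusted p = 4.04e-05 and 0.0708). The probe set used for Gbp2 is of a kind that can bind RNA of related genes, and its mean level, 4.89, is below the median of every array. A second, still dimmer Gbp2 probe set gave 1.63 and 0.31. Gbp3 rose by 0.91 ± 0.21 in the CD105+ step (limma adjusted p = 0.0129) and differed by 0.09 ± 0.21 in CD105- cells. Leaving out Thy-6C3-CD105+ replicate 1 or Thy+6C3-CD105+ replicate 2 or 3 ended the call of Gbp3.

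Of the 4 signalling genes, 1, Irf1, fell in the CD105+ Thy step and 1, Irf7, rose in the CD105- Thy step. Among all genes, 2.63% were called lower in the CD105+ step and 10.5% higher in the CD105- step. Irf1, an interferon-induced transcription factor that acts on class I and other interferon genes, had 9.28, 9.57 and 9.66 in Thy+6C3-CD105+ cells against 11.43, 10.16 and 11.77 in Thy-6C3-CD105+ cells. In CD105- cells it had 9.26, 9.56 and 10.09 with Thy, against 11.05, 9.84 and 10.65 in Thy-6C3- cells. The 2 groups did not overlap with CD105 and overlapped without it. Irf1 fell by 1.62 on the log2 scale in the CD105+ step (SE 0.40, limma adjusted p = 0.0166), and differed by -0.88 ± 0.40 in the CD105- step (limma adjusted p = 0.125). Leaving out replicate 1 or 3 of Thy-6C3-CD105+, or replicate 1 or 2 of Thy+6C3-CD105+, ended this call, with limma adjusted p up to 0.12. Irf7, which drives production of type I interferon, rose by 1.13 ± 0.33 in the CD105- step, at 5.98, 6.91 and 7.19 in Thy+6C3-CD105- cells against 5.40, 6.06 and 5.22 in Thy-6C3-CD105- cells (limma adjusted p = 0.0269). These arrays overlapped. Leaving out replicate 1 or 3 of Thy-6C3-CD105- or replicate 2 or 3 of Thy+6C3-CD105- ended the call of Irf7, as did a fit of those populations alone. Irf7 differed by -0.01 ± 0.33 in the CD105+ step. Stat2 and Irf9, of the complex on the response element, passed in no comparison. The population means of Stat2 lay between 4.95 and 5.53 and those of Irf9 between 6.52 and 6.98, and 2 probe sets of Stat2 disagreed in sign in both Thy steps.

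Of the sensors and regulators, Ifih1 and Parp14 rose in the CD105+ Thy step. Ifih1, or MDA5, detects double-stranded viral RNA, and had 7.41, 7.48 and 7.82 in Thy+6C3-CD105+ cells against 6.78, 6.24 and 5.47 in Thy-6C3-CD105+ cells. Its difference was 1.41 ± 0.33 (limma adjusted p = 0.0111), a call that ended without replicate 3 of either population. Parp14, an ADP-ribosyltransferase, rose by 1.08 ± 0.22, but averaging its 2 probe sets ended the call, at 0.50. Xaf1, an interferon-induced antagonist of the apoptosis inhibitor Xiap, rose by 0.95 in the CD105- step, a call that 17 other settings ended. Trim25, the ubiquitin ligase that acts on the sensor Rig-I, Usp18, which damps receptor signalling, and Lgals3bp, a secreted glycoprotein, were called in no comparison. Their Thy steps lay between -0.14 and 0.62 on the probe sets used. A second Trim25 probe set gave -1.25 in the CD105- Thy step and 1.34 in the CD105 step of Thy+6C3- cells.

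Of the 6 class I presentation genes, 1, Psmb8, rose in the CD105- Thy step and 1, B2m, in the CD105- 6C3 step. Among all genes, 10.5% and 1.24% were called higher in these steps. B2m is the light chain shared by all class I molecules. It had 12.48, 12.37 and 12.10 in Thy-6C3+CD105- cells against 11.23, 11.43 and 11.49 in Thy-6C3-CD105- cells. These arrays did not overlap, and B2m rose by 0.93 ± 0.16 (limma adjusted p = 0.00238), a call that ended when arrays were scaled to a common median only. With CD105 it had 11.88, 11.87 and 12.17 in 6C3+ cells against 11.54, 11.40 and 11.11 in Thy-6C3- cells, a difference of 0.62 ± 0.16 (limma adjusted p = 0.0735). The heavy chain genes H2-K1 and H2-D1 also had positive 6C3 steps, of 0.67 and 0.81 with CD105 and 0.70 and 0.75 without it, but none passed (limma adjusted p = 0.557, 0.567, 0.289 and 0.365). Their probe sets can bind RNA of other class I genes, so these values are uncertain. Dimmer probe sets of H2-K1 gave 0.21 to 0.74 with CD105 and 0.05 to 0.13 without it. Those of H2-D1 gave -0.51 to 0.96 with CD105 and -0.40 to 0.73 without it. On Thy-6C3-CD105- replicate 3 H2-K1 and H2-D1 stood at 10.20 and 10.55, where replicates 1 and 2 had 9.04 and 8.97 for H2-K1 and 9.36 and 9.21 for H2-D1. Psmb8, a catalytic subunit of the immunoproteasome, rose by 0.96 in the CD105- Thy step, and 14 other settings ended this call. Its partner subunit Psmb9 and Tap1, of the peptide transporter, passed in no comparison, with Thy steps between 0.06 and 0.54. Dimmer probe sets of Tap1 gave -0.30 and -0.29 in the CD105+ step.

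The Thy step asks how cells with Thy differ from cells without it at equal 6C3 and CD105. With CD105, 12 of the 33 members passed the test, 11 higher and 1, Irf1, lower in Thy+ cells, against 6.66% of all genes in either direction, 4.03% higher and 2.63% lower. The arrays did not overlap for 17 members higher and 1 lower in Thy+ cells, against 26.2% of all genes. The median difference of the members was 0.62, against -0.02 for all genes. Without CD105, 11 members passed, all higher in Thy+ cells, against 18% of all genes in either direction and 10.5% higher. Here 15 members did not overlap with Thy+ higher and 1 with Thy+ lower, against 34.7% of all genes, and the median was 0.50, against 0.13 for all genes. Ifitm1, Ifitm3, Ifi27l2a and Oasl2 were called higher in both steps, 36.4% of the 11 called higher in each. The count without CD105 rested on single arrays. It was 4 without Thy-6C3-CD105- replicate 3 and 6 without either Thy-6C3-CD105- replicate 1 or Thy+6C3-CD105- replicate 3.

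**Figure D3:**
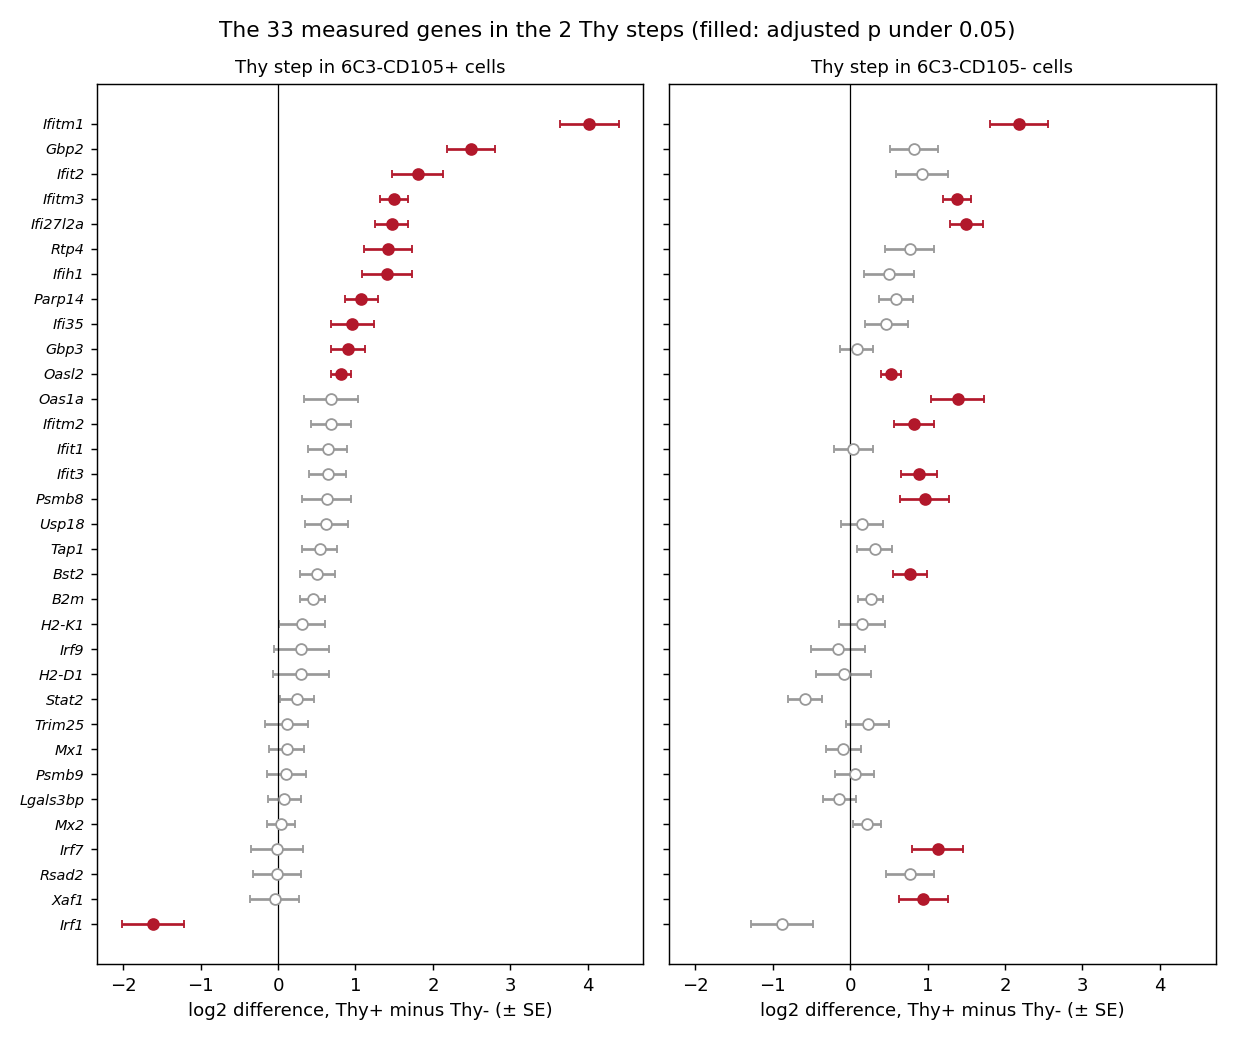
Log2 difference of each of the 33 genes between Thy+ and Thy- cells at equal 6C3 and CD105 (± SE of the fit), in CD105+ cells (left) and CD105- cells (right), both ordered by the left panel. Filled points passed at an adjusted p of 0.05, with 12 on the left and 11 on the right, and Irf1 is the filled point below 0.

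Whether the Thy step itself depended on CD105 was tested as an interaction. None of the 33 members passed by limma, against 0.269% of all genes. An unadjusted p under 0.05 was reached by 6, and the share of all genes at that threshold was not computed. The difference between the steps was 1.84 ± 0.53 for Ifitm1 and 1.66 ± 0.44 for Gbp2 (limma adjusted p = 0.188 and 0.147), larger with CD105. It was -1.14 ± 0.47 for Irf7 and -0.99 ± 0.44 for Xaf1 (limma adjusted p = 0.256 and 0.283), larger without it. Among Thy+6C3- cells the CD105 step itself called 2 members, both higher with CD105, against 1.02% of all genes in either direction and 0.824% higher. Gbp2 rose by 1.72 ± 0.31 (limma adjusted p = 0.0081) and Ifitm1 by 1.64 ± 0.38 (limma adjusted p = 0.0467). The call of Ifitm1 was lost in 16 of 29 alternative settings, and that of Gbp2 ended when replicate 3 of Thy+6C3-CD105+ was left out. The members' median was 0.22, against -0.08 for all genes, and 12 members did not overlap with CD105+ higher and 2 with CD105+ lower, against 24.8% of all genes. In Thy-6C3- and in Thy-6C3+ cells the CD105 step called no member by limma, against 0.0055% and 0% of all genes. Of the members, 0 and 5 had an unadjusted p under 0.05 there, a threshold at which the share of all genes was not computed. In Thy-6C3- cells 1 member did not overlap, higher with CD105, against 6.33% of all genes. In Thy-6C3+ cells 2 did not overlap with CD105+ higher and 1 with CD105+ lower, against 6.21%.

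The 6C3 step compares cells with and without 6C3 among Thy- cells. With CD105 no member passed by limma, against 1.36% of all genes. An unadjusted p under 0.05, for which no share of all genes was computed, was reached by 11. Ifitm3 came closest among rising members, at 0.70 ± 0.18, and Irf1 among the others, at -1.61 ± 0.40 (limma adjusted p = 0.0709 and 0.0557). Without CD105, B2m and Ifitm3 passed, both higher in 6C3+ cells, against 2.74% of all genes in either direction and 1.24% higher. Ifitm3 rose by 0.75 ± 0.18 (limma adjusted p = 0.0292), and leaving out replicate 1 or 2 of Thy-6C3-CD105- or replicate 1 of Thy-6C3+CD105- ended this call, as did both other scalings and a fit of the compared populations alone, with limma adjusted p up to 0.388. The members' medians were 0.21 with CD105 and 0.23 without it, against 0.00 and 0.07 for all genes. With CD105 8 members did not overlap with 6C3+ higher and 2 with 6C3+ lower, against 16.3% of all genes, and without CD105 7 and 1, against 17.6%. The 6C3 by CD105 interaction called no member by limma, against 0% of all genes. At an unadjusted p under 0.05 it held 1, Ifi27l2a, at -1.04 ± 0.30, again without a share of all genes.

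Set directly against 6C3+ cells, Thy+ cells had 5 members higher with CD105, against 2.59% of all genes in either direction and 1.71% higher. These were Ifitm1, by 4.49 ± 0.38 (limma adjusted p = 2.06e-06), Ifi27l2a, by 1.72 ± 0.21 (7.22e-05), Gbp2, by 1.70 ± 0.31 (0.00345), Ifit2, by 1.60 ± 0.33 (0.0102), and Ifitm3, by 0.80 ± 0.18 (0.0181). The arrays of 16 members did not overlap, all with Thy+ higher, against 18% of all genes. These comparisons share the Thy+ arrays with the Thy steps. Leaving out replicate 2 or 3 of Thy+6C3-CD105+ or replicate 3 of Thy-6C3+CD105+ ended the call of Ifit2, and that of Ifitm3 ended in 7 other settings, both other scalings among them. Without CD105, Ifitm1 was higher by 2.30 ± 0.38 and Ifitm2 by 1.19 ± 0.26 in Thy+ cells, while B2m differed by -0.66 ± 0.16 (limma adjusted p = 0.00203, 0.0181 and 0.0366), against 2.24% of all genes called, 0.918% higher and 1.32% lower. The arrays of 8 members did not overlap with Thy+ higher and those of 4 with Thy+ lower, against 14.5% of all genes. Grouping replicates 2 and 3 of Thy-6C3+CD105- by their titles leaves only replicate 1 in this population, too few to judge these calls. The calls of Ifitm2 and B2m ended in 7 and 10 settings in all, that grouping among them.

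Of 66 other interferon genes, 58 were measured. In the CD105+ Thy step 1 of them rose and 3 fell, against 4.03% of all genes higher and 2.63% lower. Iigp1, an immunity-related GTPase, rose by 1.11 ± 0.28 (limma adjusted p = 0.0197). Isg20, an interferon-induced exonuclease, differed by -1.97 ± 0.26, the kinase Jak2 by -1.12 ± 0.22 and Socs3, a feedback inhibitor of Jak signalling, by -0.94 ± 0.27 (limma adjusted p = 7.51e-05, 0.00306 and 0.0395). Isg20 stood at 5.98, 6.05 and 6.14 in Thy+6C3-CD105+ cells against 8.27, 7.55 and 8.27 in Thy-6C3-CD105+ cells. In the CD105- Thy step 6 of the 58 rose (Herc6, Nmi, Ifnb1, Oas2, Igtp and Ifnar2) and 4 fell, against 18% of all genes in either direction. These 4 and 10 calls of 58 are close to the shares of all genes. The largest of these differences was that of the chemokine Cxcl10, -3.20 ± 0.96 (limma adjusted p = 0.0299), with 5.60, 5.60 and 5.90 in Thy+6C3-CD105- cells against 8.44, 6.73 and 11.53 in Thy-6C3-CD105- cells. The Cxcl10 arrays did not overlap, but the Thy-6C3-CD105- replicates were far apart. The medians of these 58 genes were 0.09 and 0.29 in the 2 Thy steps. Iigp1 also rose in the CD105 step of Thy+6C3- cells, by 1.59 ± 0.28 (limma adjusted p = 0.00619). In the 6C3 steps no gene of this list rose, and Socs3 fell in both, by 1.44 and 1.26 on the log2 scale, and Jak2 in the CD105- step, by 0.94.

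Of 18 other class I and related presentation genes, 14 were measured. In the CD105- Thy step Tap2, the partner of Tap1, and Tapbp, which joins it to class I molecules, rose by 0.98 and 0.66 (limma adjusted p = 0.0221 and 0.0331). In that step 10.5% of all genes were called higher. Cd1d1, a class I-like molecule that presents lipids and pairs with B2m, rose in both 6C3 steps, by 0.92 ± 0.21 with CD105 and 1.01 ± 0.21 without it (limma adjusted p = 0.0378 and 0.0121). Cd1d1 had 8.63, 8.88 and 8.54 in Thy-6C3+CD105- cells against 7.48, 7.51 and 8.03 in Thy-6C3-CD105- cells. Of 6 measured class II genes, H2-DMa fell in both 6C3 steps and in the CD105- Thy step, and H2-Eb1 rose in the CD105- Thy step, by 0.73 ± 0.23.

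Markers of other cell types moved with several of these differences. Pericyte and smooth muscle genes were highest in Thy+6C3-CD105+ cells, where their summed linear level was 20875 to 22930, against 7444 to 11587 in the other 5 populations. Of the 10 genes on that list, 8 rose and 1 fell in the CD105+ Thy step, 3 rose and 2 fell in the CD105- Thy step, and 5 rose in the CD105 step of Thy+6C3- cells. Among all genes, 6.66%, 18% and 1.02% were called in these steps in either direction. Rgs5, a pericyte gene, had 12.06, 12.40 and 12.21 in Thy+6C3-CD105+ cells and 7.80 to 10.13 elsewhere. Chondrocyte genes ran the other way, with all 12 lower in both Thy steps, and summed levels of 20362.6 to 24150 on Thy+ arrays against 77958 to 89909 on Thy-6C3- arrays. Of 10 endothelial genes 3 rose in the CD105+ Thy step (Esam, Tek and Flt1) and 1, Tek, in the CD105- step, while Cdh5 stayed between 4.83 and 5.42. Tek encodes Tie2, which the gate excluded, and rose by 1.11 ± 0.17 with CD105 and 1.51 ± 0.17 without it (limma adjusted p = 0.000349 and 1.46e-05). The endothelial summed level was 826 to 894 in Thy+6C3-CD105+ cells and 639 to 675 in Thy+6C3-CD105- cells, against 472 to 647 in Thy-6C3-CD105+ and 488 to 534 in Thy-6C3-CD105- cells. In Thy-6C3+ cells it was 484 to 588 with CD105 and 566 to 714 without it. The Thy-6C3+CD105- arrays thus overlapped those of Thy+6C3-CD105-.

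Some keratinocyte and blood cell genes were higher in the CD105- Thy step, where 10.5% of all genes were called higher. Krt5, Krt14 and Krt15, of 9 keratinocyte genes, rose by 2.31, 2.09 and 2.75 in the CD105- Thy step, and the summed level of the list was 914 to 1546, against 493 to 533 in Thy-6C3-CD105- cells. Of 15 myeloid genes Laptm5 and Csf1r rose and Lcp1 fell by 1.99 on the log2 scale in that step, with summed levels of 977 to 1432 against 825 to 847. Of 6 measured lymphoid genes Cd3e and Cd79b rose, with summed levels of 319 to 482 against 217 to 252. On Thy+6C3-CD105- replicate 3, Irf7, Oas1a, Rsad2, Bst2 and Psmb8 each had their highest level of the 18 arrays, and Ifi35, Ifit2 and H2-D1 stood below both other replicates. In a fit that weighted arrays by their spread, this array had the lowest weight of the 18, 0.174, against up to 3.692. Laptm5 stood at 9.48, 7.73 and 8.99 on Thy+6C3-CD105- replicates 1, 2 and 3. The part of any of these cell types in the members' differences was not tested.

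**Figure D4:**
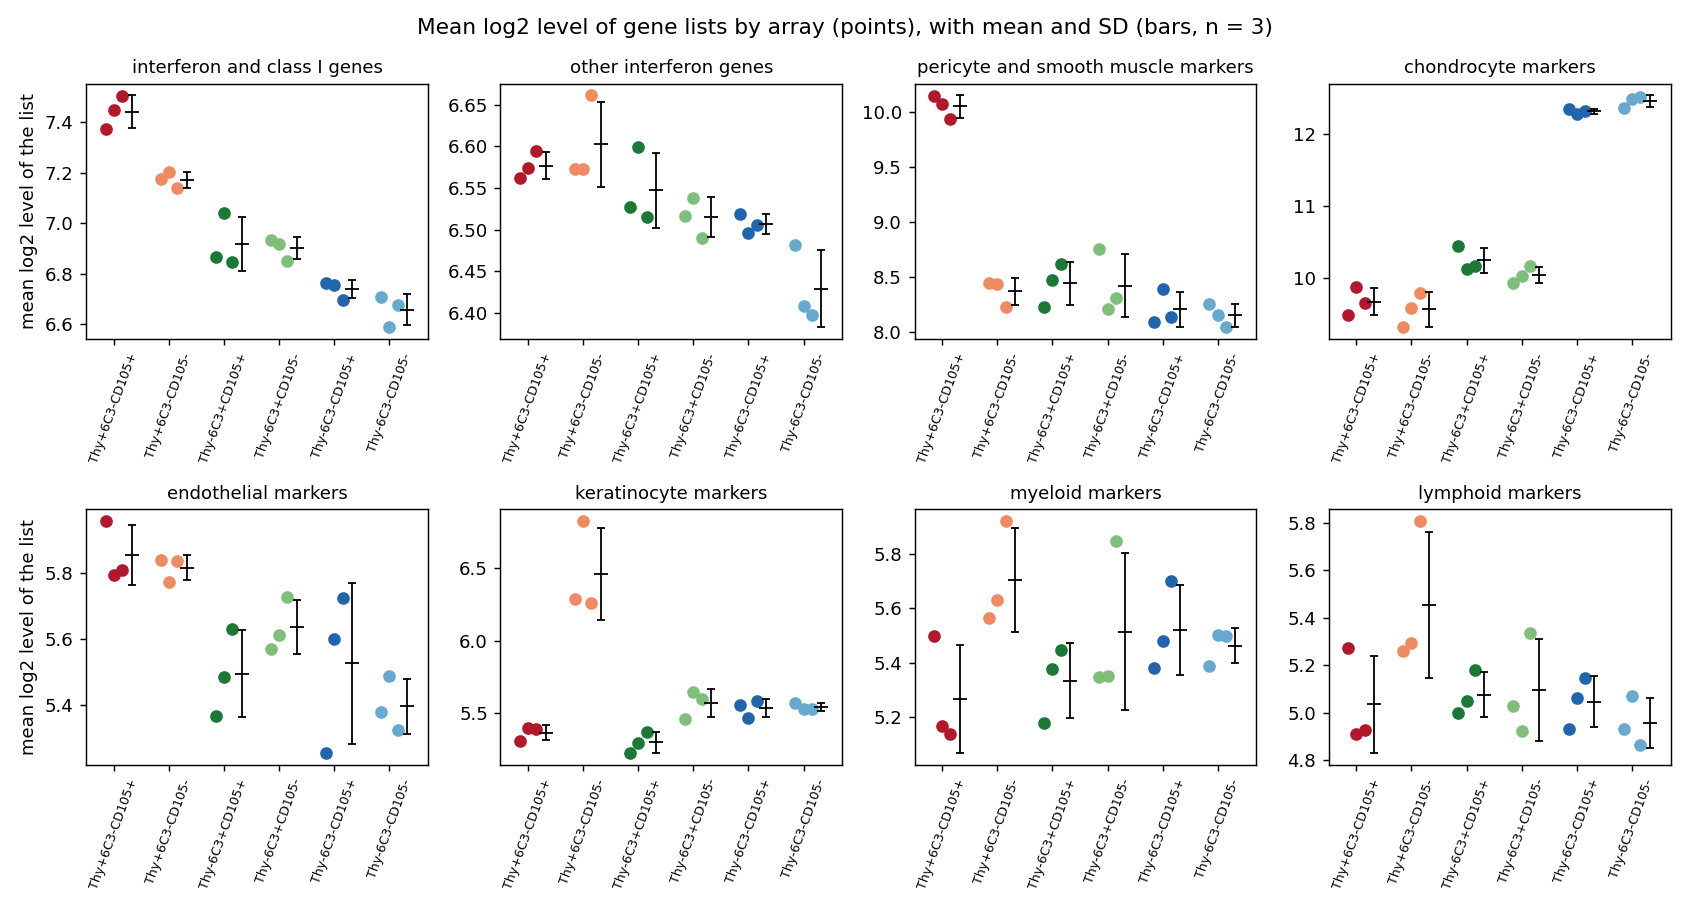
Mean log2 level of 8 gene lists on each neonatal array (points), with the mean and SD of the 3 arrays of each population (bars). The mean of the interferon and class I list steps down from Thy+ to 6C3+ to Thy-6C3- cells, though B2m, H2-K1 and H2-D1 do not follow it. Pericyte and smooth muscle genes are highest in Thy+6C3-CD105+ cells, and keratinocyte genes in Thy+6C3-CD105- cells.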

How the data were processed

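Gene expression was measured on 19 Affymetrix mouse arrays. The table deposited by the authors gives log2 levels of 45101 probe sets, from 2.55 to 14.6. RNA was amplified in 2 rounds, per the labels' protocols, which can raise the spread of dim genes, and the sources used here do not give the step from scan to log2 value. Arrays carry no counts, so 3 arrays per population limit the precision.

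Values were quantile normalized over the 19 arrays. Of the probe sets 64 were controls, 34945 had 1 gene symbol, 932 had several and 9160 had none; each of 18193 genes was read from its brightest single-symbol probe set, by the mean of the 18 neonatal arrays, and no filter on low values was set. limma 3.58.1 in R 4.3.3 fitted 1 mean per population, with contrasts, interactions and eBayes with a trend (12 residual and 5.38 prior degrees of freedom). Tests were two-sided and adjusted by Benjamini-Hochberg over all genes, at 0.05. The fit was tested on simulated data.

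Arrays were grouped by the population field. The members and gene lists were chosen with earlier results of these data known. Full statistics were given for up to 6 called members per comparison, values on every array for members passing the F-test with a range of population means of at least 2, and up to 4 called genes of other lists; further members were described after their values were seen. The poly-A controls, 27 probe sets, split the neonatal arrays at 5.90 into 11 high and 7 low arrays. Replicate numbers did not pair the arrays, as same-numbered arrays correlated at 0.01 on average in their deviations from the population means (45 pairs, -0.56 to 0.67). Alternatives changed the scaling, genes tested, probe sets, variance model, blocks, grouping and arrays. Promoter windows came from RefSeq (GRCm38.p6). Python 3.11.15, pandas 2.3.3 and matplotlib 3.10.9 served for promoters and figures.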

Additional observations from a re-analysis of the deposited data

Results flagged for a closer look

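The array labelled adult, titled Thy+6C3+CD105+, entered no comparison. On it 3 of the 33 members stood above all 18 neonatal arrays and 2 below all of them, and 28 lay within. Usp18, the inhibitor of interferon receptor signalling, stood at 7.19, against 4.52 to 6.10 on the neonatal arrays. Irf9 stood at 7.56, against 5.64 to 7.22. Trim25 stood at 9.95, against 8.01 to 9.46. Ifitm3 at 7.15 and Oasl2 at 3.82 were below every neonatal array. The source field of this array names sternum and ear while its tissue field names limbs, and a single array allows no test. Grouped by the population field, no neonatal array was positive for both Thy and 6C3. Age and these antigens therefore cannot be told apart here. The share of all genes outside the neonatal range was not computed.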

How the results depend on the processing

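Of the 35 calls of members in the comparisons, 12 were kept in every setting that tested the gene, 23 were lost in at least 1, and none reversed in sign. The 12 include Ifitm1, Ifitm3 and Ifi27l2a in both Thy steps and Gbp2, Ifit2 and Oasl2 in the CD105+ step. All 35 differences had the same sign within the high and within the low poly-A set, a split added, like the medians under each scaling, after seeing the data. They were picked because they were called on these same arrays, and a set often held 1 array of a population. Equal signs are therefore no independent check. With only genes at or above the median level, which leaves 13 members, the F-test called 6, the CD105+ Thy step 4, the CD105- Thy step 6, the CD105+ 6C3 step 3, the CD105 step of Thy+6C3- cells 0 and Thy+ against 6C3+ with CD105 2. With array weights the F-test called 23, the CD105+ 6C3 step 5, the CD105 step of Thy+6C3- cells 7, Thy+ against 6C3+ 11 with and 1 without CD105, and the Thy by CD105 interaction 1. With the compared populations alone the CD105- Thy step called 6, the 6C3 steps 2 with and 1 without CD105, the CD105 step of Thy+6C3- cells 1 and Thy+ against 6C3+ without CD105 0. With a replicate block the CD105+ 6C3 step called 1 and the CD105 step of Thy+6C3- cells 4, and no other count moved by over 1.5 times; the numbers do not pair the arrays. With the poly-A block the 6C3 steps called 2 and 4. Grouped by title, the CD105+ 6C3 step called 1 and the CD105 step of Thy+6C3- cells 1. That grouping leaves only 1 array of Thy-6C3+CD105-, so counts of its comparisons are not given. With a common median only, the CD105- 6C3 step called 0 and Thy+ against 6C3+ without CD105 1; without shared probe sets that 6C3 step called 1. That scaling moved the median of all genes in the CD105- Thy step to -0.05, against 0.13 after quantile normalization, and the members' median to 0.30, against 0.50, with 7 called higher and 1 lower. In the CD105 step of Thy+6C3- cells it moved the median of all genes to 0.15 and the members' to 0.47. Leaving out 1 array at a time gave 11 to 14 calls in the F-test, 9 to 12 in the CD105+ and 4 to 13 in the CD105- Thy step, 0 to 3 and 1 to 4 in the 6C3 steps, 0 to 3 in the CD105 step of Thy+6C3- cells and 0 to 0 in the other CD105 steps and the interactions, and 3 to 6 and 1 to 3 in Thy+ against 6C3+. The share of all genes called under each setting is not given here, so a changed count need not concern the members alone. The cause of these changes was not tested.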
